A study of Mus musculus with 19 samples.

Results

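Alpi, Cdx1, Cdx2, Vil1, Lgals4, Ctse, Cdh17, Fabp2, Reg3g and Muc13 are genes of the gut epithelium that were read here in mouse liver. They are 10 of the 55836 genes of the count table and were chosen by their values, because most of them stood out in 1 of the 19 liver libraries, MD + PE replicate 2. The height of these genes in that library is therefore given as a description, without a test. Bulk RNA-seq of poly(A) RNA was made from frozen pieces of liver of male wild-type C57BL/6 mice that were 8 weeks old when procured, with 1 library per mouse. CD + Veh (n = 4) and CD + PE (n = 5) mice ate a control diet with 10% of its energy from fat, and MD + Veh (n = 5) and MD + PE (n = 5) mice ate a MASH (metabolic dysfunction-associated steatohepatitis) diet that held 2% cholesterol and drew 40% of its energy from fat and 20% from fructose. The PE groups received 2 mg of polyethylene microplastic per mouse and day by oral gavage for 8 weeks and the Veh groups were gavaged with vehicle alone, so that all 4 groups share the gavage. All libraries carry 1 batch label, and their library numbers run from 39 to 47 in the Veh groups and from 48 to 57 in the PE groups, so that an effect of library order cannot be told apart from one of PE.

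The lining of the intestine is a single layer of cells renewed from crypts. Absorptive enterocytes carry a brush border of digestive enzymes, goblet cells secrete mucus, and CDX transcription factors set and keep the intestinal identity of the layer. The glands of the stomach lie next to it and make other mucins, trefoil peptides and gastrokines. Hepatocytes, the main cells of the liver, use few of these genes, and bile duct cells share some of them with the gut. In bulk tissue, more cells of a type and more RNA per cell cannot be told apart.

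The libraries held 10398820 to 15456729 counts, 11163063 of them in MD + PE replicate 2. Counts are given as deposited, and levels as TMM-normalized CPM (a gene's share of the counts of its library, scaled between libraries by edgeR's trimmed mean of M-values). A count of 0 allows up to 3 counts at the 95% level, which is 0.186 to 0.301 CPM in these libraries, and all intervals below cover counting error only. A pair of libraries stood apart from the rest. At least 20 counts and 5 times the level of each of the other 18 libraries were met by 168 genes in MD + PE replicate 2 and by 169 genes in MD + Veh replicate 1, where the skeletal muscle genes Acta1, Ckm and Myh4 were read at 12230, 5372 and 5186 counts. CD + PE replicate 1 had 13 such genes, CD + PE replicate 2 had 7, CD + Veh replicate 2 and MD + Veh replicate 4 had 1 each, and the remaining 13 libraries had 0.

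**Figure D1:**
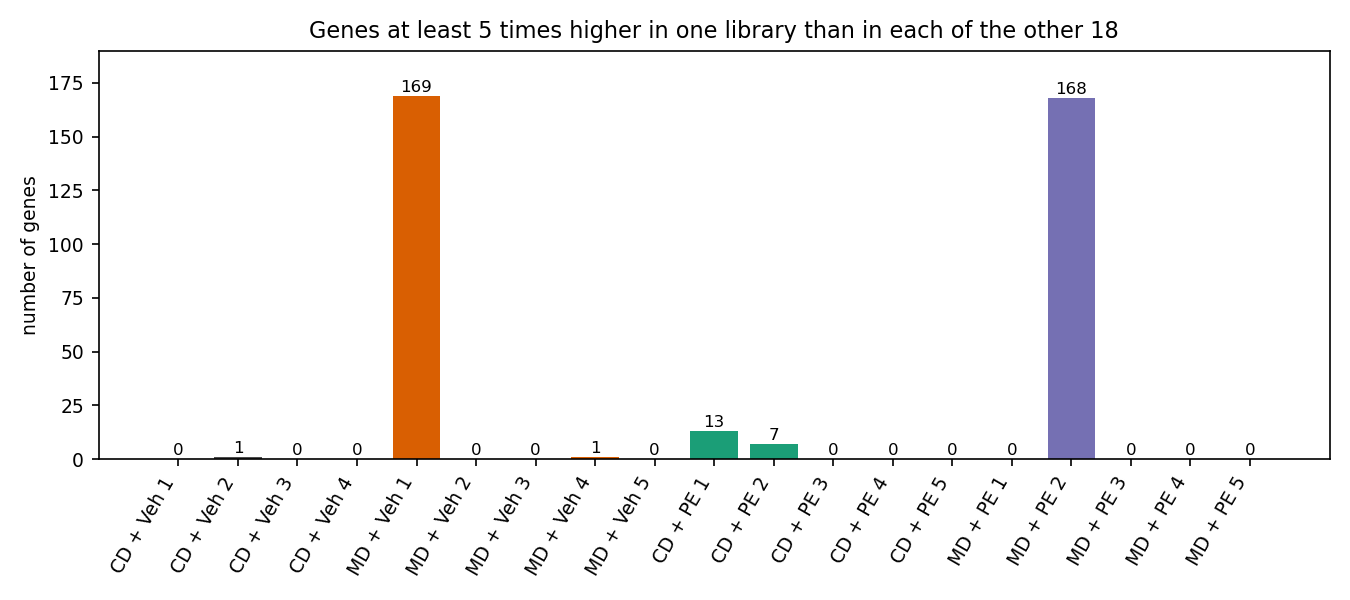
The bars give, for each of the 19 libraries, the number of genes with at least 20 counts and a level at least 5 times that of each of the other 18 libraries, coloured by group. MD + Veh replicate 1 (169 genes) and MD + PE replicate 2 (168 genes) rise far above the others, which have 0 to 13.

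Of the 10 genes, 9 had their highest level in MD + PE replicate 2, on every scale tried. Fabp2 was the exception, and Lgals4 exceeded the next library less than the other 8 members did, where a ratio could be given. The other 8 members summed to 2375 counts in MD + PE replicate 2, to 50 in MD + PE replicate 3, to 36 in CD + Veh replicate 2, to 35 in MD + PE replicate 4 and to 20 in MD + Veh replicate 4. The remaining 14 libraries held 3 to 18 counts of these 8 genes together. The 10 genes lie on 8 chromosomes.

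The transcription factors were among the lowest members, with Reg3g between them in level. Cdx2, the factor that establishes intestinal identity, was read at 24 counts in MD + PE replicate 2, which is 2.00 CPM with an exact 95% interval of 1.28 to 2.98. It was at 0 in each of the other 18 libraries, and 2.00 CPM is 6.66-fold the highest level that 3 counts allow in them. This value leaves out the counting error of the 24 counts. Cdx1, its close relative, was read at 5 counts (0.418 CPM, interval 0.136 to 0.974) and was also at 0 in the other 18 libraries. Its level is 1.39-fold the 0.301 CPM that 3 counts allow at most, but its interval reaches below 0.301 CPM, so no excess is bounded. The relative Cdx4 was at 0 in MD + PE replicate 2.

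Enzymes and structural proteins of the enterocyte brush border came with them. Alpi, the intestinal alkaline phosphatase, was read at 868 counts (72.5 CPM, interval 67.7 to 77.5). The next highest value was 11 counts (0.955 CPM) in MD + PE replicate 3, a ratio of 75.9 (interval 42.2 to 153). MD + Veh replicate 4 held 8 counts of Alpi, MD + PE replicate 4 held 3, MD + Veh replicate 5 held 1, and 14 libraries were at 0. Alpi was thus not detected in any CD library at this depth. Akp3, its neighbour in sequence and also an intestinal phosphatase, followed with 1629 counts against at most 43 elsewhere. Reads can be shared between such close copies, so the split between Alpi and Akp3 is uncertain. Alpl, the tissue-nonspecific phosphatase of liver, bone and kidney, was not raised, with 12.8 CPM in MD + PE replicate 2 and 23.5 CPM in the highest library, MD + PE replicate 4. Vil1 encodes villin, which bundles the actin of microvilli. It was read at 269 counts (22.5 CPM, interval 19.9 to 25.3), and in the other libraries at 1 to 9 counts with none at 0. The highest of these, CD + Veh replicate 2 with 0.644 CPM, was lower by a ratio of 34.9 (interval 18.1 to 77.1).

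Adhesion and surface proteins were also highest in MD + PE replicate 2, with MD + PE replicate 3 next. Muc13, a mucin bound to the apical membrane, was read at 487 counts (40.7 CPM, interval 37.1 to 44.4). The next library was MD + PE replicate 3 with 7 counts (ratio 66.9, interval 32.2 to 167), then MD + Veh replicate 4 with 6, MD + PE replicate 4 with 3, MD + Veh replicate 1 with 2 and MD + PE replicate 5 with 1, and 13 libraries were at 0. Cdh17, the liver-intestine cadherin, was read at 119 counts (9.94 CPM, interval 8.23 to 11.9), against 6 in MD + PE replicate 3 (ratio 19.1, interval 8.51 to 53.02), 1 or 2 in 4 other libraries, and 0 in 13. Its relative Cdh16 was at 0 in MD + PE replicate 2.

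Reg3g, an antimicrobial lectin of the intestinal surface, was read at 18 counts (1.503 CPM, interval 0.891 to 2.38). It had 1 count in each of CD + PE replicate 3, MD + PE replicate 3 and CD + Veh replicate 2, and was at 0 in 15 libraries. The ratio to the highest of them was 17.0, and because it rests on 1 count its interval runs from 2.69 to 710. Its relative Reg3b had 44 counts in MD + PE replicate 2 and at most 1 elsewhere.

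Ctse, Lgals4 and Fabp2 had counts in most or all livers. Ctse encodes cathepsin E, an aspartic protease of gastric and other epithelia and of immune cells. It was read at 585 counts (48.9 CPM, interval 44.98 to 52.98) in MD + PE replicate 2, at 20 counts (1.74 CPM) in MD + PE replicate 3 and at 24 counts (1.72 CPM) in CD + Veh replicate 2. The ratio to the highest of these was 28.1 (interval 18.05 to 46.4), and 3 libraries were at 0. Lgals4 encodes galectin-4, a lectin of the apical membrane of gut epithelium. It was read at 620 counts (51.8 CPM, interval 47.8 to 56.02), and in the other 18 libraries at 68 to 299 counts, the highest of them CD + PE replicate 3 with 26.4 CPM. The ratio of MD + PE replicate 2 to that library was 1.96 (interval 1.71 to 2.26). The sequence of Lgals4 is close to that of Lgals6, which some mouse strains carry. Whether these mice carry it was not tested.

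Fabp2, the intestinal fatty acid binding protein, did not stand out in MD + PE replicate 2. It was read there at 1400 counts (117 CPM, interval 111 to 123), the third highest level after MD + Veh replicates 3 and 2, and at 551 to 1935 counts in the other 18 libraries. The ratio to MD + Veh replicate 3 (121 CPM) was 0.966 (interval 0.90 to 1.04), so these libraries did not differ beyond counting error. Fabp1, the liver form, was lowest of all 19 libraries in MD + PE replicate 2 with 3029 CPM.

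**Figure D2:**
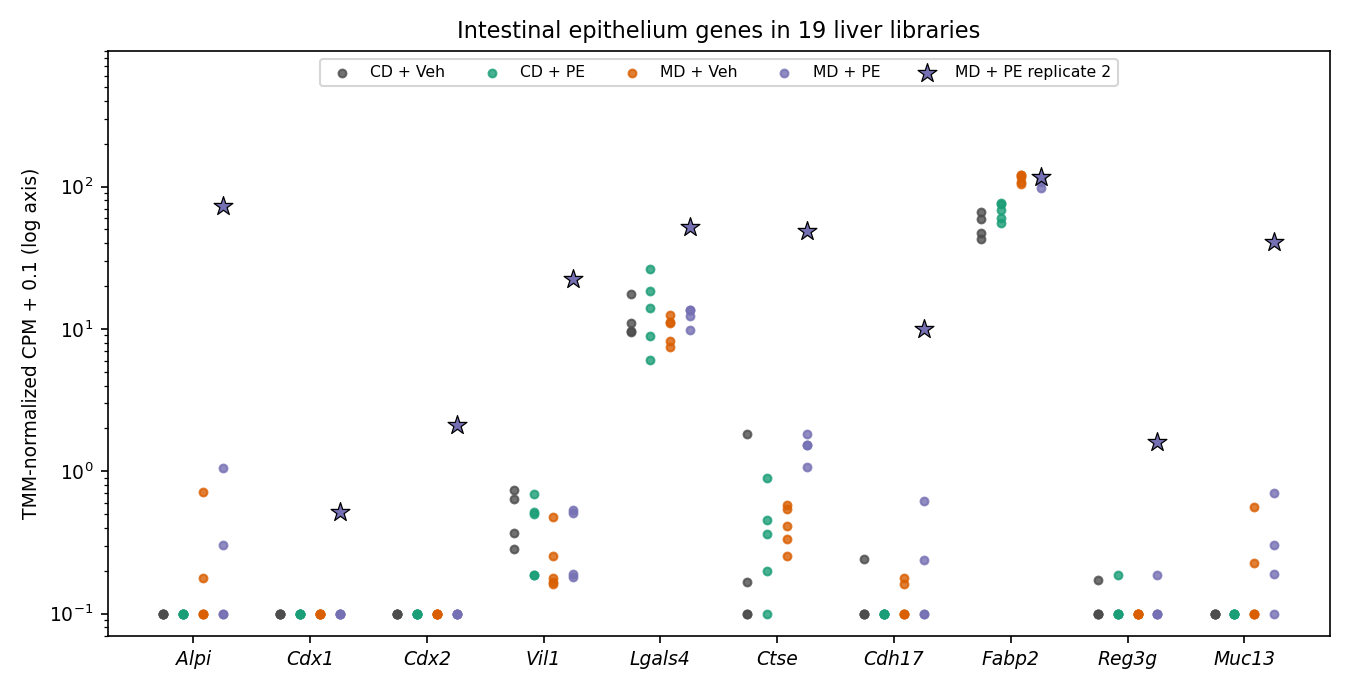
Each point is 1 library, with the TMM-normalized CPM of the gene plus 0.1 on a log axis, coloured by group, so that libraries at 0 lie at 0.1. The star, MD + PE replicate 2, is the highest point for every gene except Fabp2, lies at 51.8 CPM for Lgals4 against 26.4 CPM in the next library, and for Cdx1 and Cdx2 is the only library above 0.

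Per kilobase of annotated exon, the members ordered as follows in MD + PE replicate 2. Fabp2 was highest with 121 CPM per kb, followed by Alpi with 31.0 CPM per kb. Ctse (14.6), Muc13 (13.4) and Lgals4 (13.1 CPM per kb) came next, and their exact intervals of 13.4 to 15.8, 12.2 to 14.6 and 12.1 to 14.2 overlapped, so their order was not resolved. Vil1 stood at 4.63 and Cdh17 at 2.19 CPM per kb. Cdx2 at 0.882, Reg3g at 0.698 and Cdx1 at 0.211 CPM per kb were last, with the intervals of Cdx2 and Reg3g overlapping. The enzymes and membrane proteins stood above both transcription factors on this scale.

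The members are shown with their upstream sequence because 9 of them had their highest level in the same library, though Fabp2 did not, and because CDX factors bind AT-rich DNA. RefSeq promoters (250 bases before the start, table of build GRCm38.p6, each found letter for letter once around its gene in GRCm39) were matched for 7 of the 10 members, in 8 promoters. The letters CATAAA or their reverse complement TTTATG, a core that CDX proteins bind, were found in 1 of the 8 member promoters and in 10.8% of all 32851 promoters. A match is a description of the letters only. Below, capitals mark these letters, and all 3 sequences are written 5′ to 3′ on the strand of the gene, for Alpi (chr1:87029329-87029578, minus strand, no match), Cdx2 (chr5:147244060-147244309, minus strand, no match) and Muc13 (chr16:33614157-33614406, plus strand, CATAAA starting 180 bases before the start), in GRCm39.
Alpi: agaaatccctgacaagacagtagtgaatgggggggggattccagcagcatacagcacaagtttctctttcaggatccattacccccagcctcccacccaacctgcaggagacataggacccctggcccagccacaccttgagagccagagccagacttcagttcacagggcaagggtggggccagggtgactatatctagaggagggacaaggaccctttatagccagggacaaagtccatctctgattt
Cdx2: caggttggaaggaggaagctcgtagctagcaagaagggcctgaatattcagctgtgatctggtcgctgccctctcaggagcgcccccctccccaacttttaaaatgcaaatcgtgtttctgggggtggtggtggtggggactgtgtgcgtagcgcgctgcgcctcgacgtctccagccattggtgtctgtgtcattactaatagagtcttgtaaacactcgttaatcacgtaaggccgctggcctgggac
Muc13: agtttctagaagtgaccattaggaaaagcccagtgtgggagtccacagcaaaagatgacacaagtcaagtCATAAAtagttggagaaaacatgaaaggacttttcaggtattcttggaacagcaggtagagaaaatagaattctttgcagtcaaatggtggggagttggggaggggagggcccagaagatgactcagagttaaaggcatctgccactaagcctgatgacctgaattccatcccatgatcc

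In GRCm39, with GENCODE vM39, Alpi lies at chr1:87025724-87029328 on the minus strand, Vil1 at chr1:74448535-74475933 and Ctse at chr1:131566009-131603243 on the plus strand. Fabp2 lies at chr3:122688721-122693155, Cdh17 at chr4:11758147-11817895, Lgals4 at chr7:28531804-28541281 and Muc13 at chr16:33614407-33640304, all on the plus strand. Cdx2 lies at chr5:147237615-147244091, Reg3g at chr6:78443246-78445859 and Cdx1 at chr18:61151934-61169314, all on the minus strand. Counts were summed over all transcripts of a gene, so they belong to its exons as a whole.

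Other intestinal genes were read in the same library. Of 28 enterocyte genes, 13 met the limit of 20 counts and 5 times every other library. Krt20, a keratin of the surface epithelium, was read at 397 counts against at most 6 elsewhere, Prap1 at 481 against 11, and Sis, the sucrase-isomaltase of the brush border, at 248 against 4. Mgam and Anpep, brush border enzymes that liver also expresses, ranked only the second and the thirteenth of 19 there. The list as a whole therefore rose less than its single genes, with a summed level of 620 CPM against 293 to 407 CPM in the other 18 libraries. Of 9 goblet cell genes, 6 met the limit, and their summed level was 348 CPM against 0.897 to 10.002 CPM. Fcgbp, a protein of the mucus gel, was read at 1350 counts, Clca1 at 1159 and Agr2, a chaperone of mucin folding, at 1057, while Muc2, the main intestinal mucin, was read at 196 and Tff3, its companion trefoil peptide, at 58 with its highest level in CD + Veh replicate 1.

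The rarer cells of the intestine were read at low levels. Of 11 genes of Paneth cells and gut antimicrobial proteins, 4 were at 0 (Defa17, Defa21, Defa24 and Reg3a). The sum was 5.34 CPM, most of it Reg3b, against at most 0.695 CPM elsewhere. Lyz1 and Mmp7 had 1 count each, below the 11 and 6 counts of their highest other libraries. Of 8 enteroendocrine genes, Chgb had 29 counts, Chga 12 and Gip, a hormone of the upper small intestine, 9, while Gcg, Neurod1 and Tph1 were at 0, with a sum of 4.34 CPM against at most 0.190. The 4 crypt stem cell genes summed to 22.1 CPM, against 7.44 to 17.4 CPM elsewhere, and only Olfm4 and Ascl2 were highest in MD + PE replicate 2. Among genes that mark regions along the gut, Pdx1 of the duodenum had 38 counts against at most 2, Slc26a3 of the colon 104 against at most 23, and Fabp6 of the ileum and Hoxb13 of the distal colon were at 0.

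The name intestinal epithelium covers only part of what stood out in this library, since several genes of the stomach were read at far higher levels. Of 12 stomach genes, 7 met the limit, and they summed to 3352 CPM in MD + PE replicate 2 against 0.296 to 71.6 CPM in the other 18. Muc6, the mucin of deep gastric and duodenal glands, was read at 27258 counts, and Tff2, the trefoil peptide secreted with it, at 11385. Gkn3, Gkn2 and Gkn1, gastrokines of the stomach lining, were read at 5956, 2060 and 1891 counts, Tff1 at 1777, Muc5ac, the surface mucin, at 675, and Pgc, the precursor of pepsin C, at 501. Per kilobase of exon, Tff2, which was counted with the bile duct list, stood at 1612 CPM per kb. Of the stomach list, Gkn3, Gkn2, Tff1, Muc6 and Gkn1 stood at 437, 218, 211, 146 and 126 CPM per kb, above Fabp2 with 121. Pgc at 30.0 and Muc5ac at 5.24 CPM per kb stood below Alpi with 31.0. Cblif and Atp4b, which mark chief and parietal cells of the acid-secreting stomach, were at 0, and Atp4a had 6 counts, fewer than the 15 of CD + PE replicate 4.

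The 168 genes of the single-library limit summed to 82740 counts, or 0.741% of the library (exact 95% interval 0.736 to 0.746%). Muc6 alone was 32.9% of that sum, and Muc6 with Tff2 was 46.7%. The 168 are 1.42% of the 11871 genes with at least 20 counts in MD + PE replicate 2, and 6 members are among them. The 4 members outside are Cdx1 and Reg3g, which had fewer than 20 counts, Lgals4 with its ratio of 1.96, and Fabp2. Just inside the limit of 20 counts is Cdx2 with 24, and just outside is Reg3g with 18. The members were chosen on this contrast, so nothing is read from these shares.

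The 15 genes outside the members with the largest ratio of MD + PE replicate 2 to the highest other library, each level taken with 0.1 CPM added, were Psca, Gkn2, Sult6b2, Sprr2a1, Lypd8l, Mucl3, Pgc, Tff1, Gkn1, Sprr2a3, Krt20, Sis, Tff2, Klk1 and Muc5ac. Psca, a surface antigen of gastric and other epithelia, led with 199 counts against 1 count in the next library, and Sprr2a1, a small proline-rich protein of stressed epithelium, had 1681 against 24. MD + PE replicate 3 was the next library for 12 of the 15. The genes whose pattern over the 19 libraries was most like the mean of the 10 members were Pgc (Pearson r = 0.986 on the log2 CPM scale), Lypd8 (0.981), Anxa10 (0.979), Lypd8l, Mucl3, Liph, Prss32, Vsig1, Ern2 and Clca4b (0.976). They were the 10 closest of 15712 genes compared. Over the 18 libraries without MD + PE replicate 2, r fell to 0.842 for Pgc and to between 0.711 and 0.811 for the other 9. Each of the 10 genes had only 2 to 16 counts in those 18 libraries together. The number of genes with r of at least 0.9 fell from 59 to 0, so values that high rest on 1 library.

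Genes of other neighbouring tissues were checked beside the members. Bile duct and gallbladder genes summed to 1143 CPM against 53.3 to 124 CPM, but Tff2 gave 951 CPM of that sum. Krt19 and Krt7, keratins of bile ducts that gut epithelium shares in part, were read at 697 and 156 counts and were highest in MD + PE replicate 2, whereas Spp1, a secreted glycoprotein of bile duct cells, ranked the sixteenth of 19. Igha, the heavy chain of the antibody that plasma cells of the gut wall secrete, was read at 511 counts against at most 15. The other lymphocyte genes were at 6 counts or fewer apart from Jchain with 88. The summed level of smooth muscle genes was 127 CPM, second to the 247 CPM of MD + Veh replicate 1. Of the 8 genes, 4 were highest in MD + PE replicate 2. Actg2, the enteric actin, had 94 counts against at most 29, the largest ratio of the list (3.27). Cnn1 had a ratio of 2.08 to the highest other library. Myh11 and Acta2 had ratios of 1.13 and 1.14, with intervals that include 1. The rest were higher in another library, with Des at 209 counts against 2449 in MD + Veh replicate 1. The 11 genes of exocrine pancreas were at 0 apart from Clps with 6 counts, and the skeletal muscle genes summed to 1.34 CPM, within the 0.471 to 2997 CPM of the other 18 libraries. The 4 genes of the mesothelium, which lines the abdominal organs, were each below the highest of the other libraries and summed to 4.01 CPM against 0.606 to 10.7 CPM. The part of each of these cell types in the result was not tested.

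**Figure D3:**
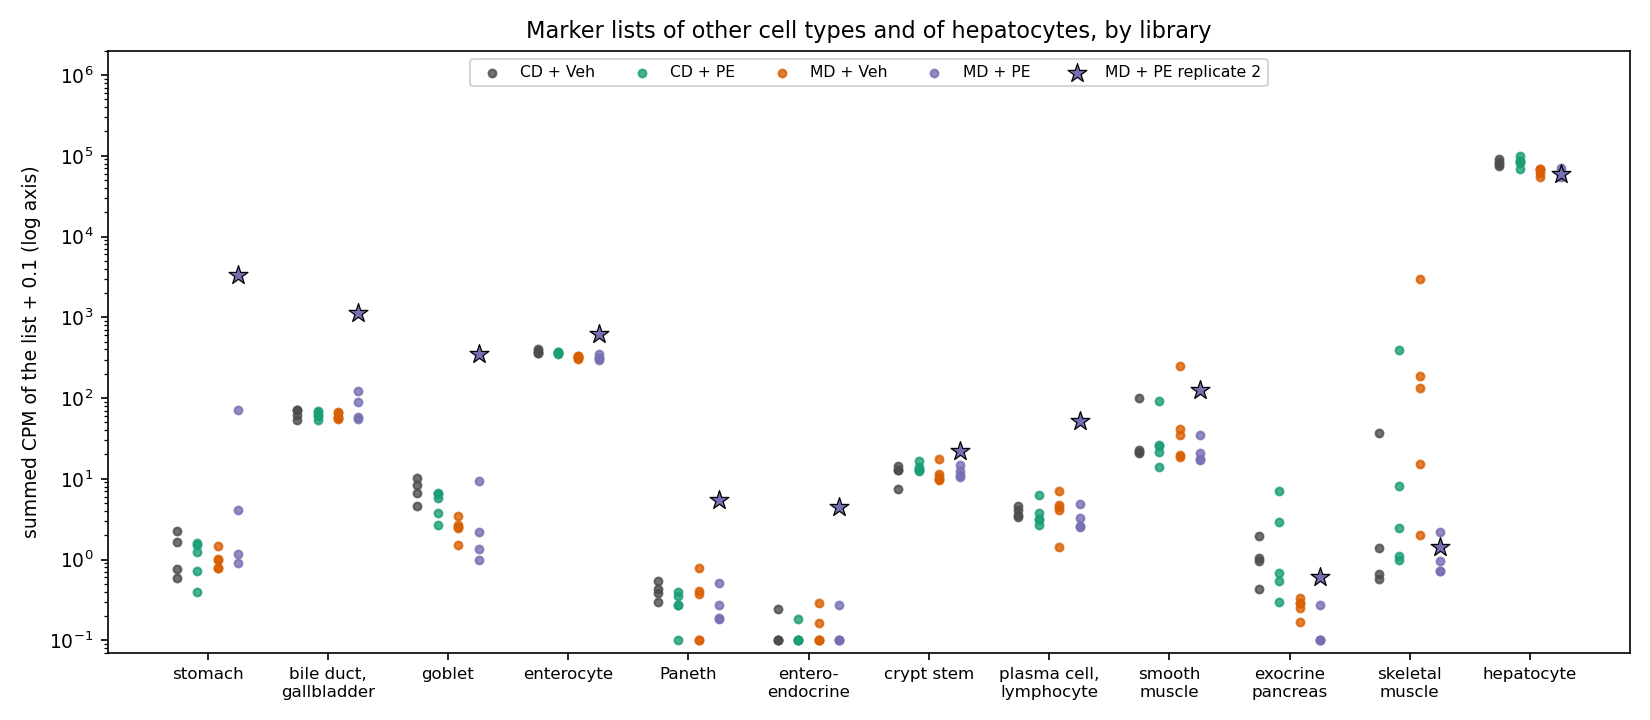
Each point is the summed CPM of 1 marker list in 1 library, plus 0.1, on a log axis and coloured by group. The star, MD + PE replicate 2, is highest for the stomach (3352 CPM), bile duct, goblet, enterocyte, Paneth, enteroendocrine, crypt stem and plasma cell lists. It lies among the other libraries for hepatocyte genes (59230 CPM) and skeletal muscle (1.34 CPM). The list labelled Paneth also holds gut antimicrobial genes, and most of its sum in MD + PE replicate 2 is Reg3b.

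MD + PE replicate 2 was still a liver library by its main genes. The 8 hepatocyte genes summed to 59230 CPM against 54016 to 98190 CPM in the other 18 libraries. Alb, the serum albumin, stood at 35494 CPM, between the 32242 and 43712 CPM of the other 4 MD + PE libraries. Of the 8 genes, only Apoa1 was outside the range of those 4 libraries, at 4663 against 5274 to 5938 CPM.

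The members and the stomach genes were also read in the libraries next to it in number. MD + PE replicate 2 is library 54, and MD + PE replicates 3 and 4 are libraries 55 and 56. Of the 168 genes of the single-library limit, 24 had at least 500 counts in MD + PE replicate 2. All 24 had a count in MD + PE replicates 3 and 4, with a median of 2.21% and 0.299% of the level in replicate 2. In MD + PE replicate 1 (library 53) and replicate 5 (library 57), 9 and 11 of the 24 had a count, and in the libraries of the other 3 groups 7 to 15 did, with 15 in CD + Veh replicate 2 and 13 in MD + Veh replicate 3. Alpi stood at 1.32%, Muc13 at 1.49%, Vil1 at 1.93%, Ctse at 3.55% and Cdh17 at 5.24% of replicate 2 in replicate 3, beside 2.21% for Muc6 and 2.06% for Tff2. In replicate 4, Alpi stood at 0.284%, Muc13 at 0.506%, Cdh17 at 1.38%, Vil1 at 1.83% and Ctse at 2.95%, beside 0.0874% for Muc6 and 0.180% for Tff2. For Vil1, Ctse and Cdh17, CD + Veh replicate 2 (library 40) held as much, at 2.87%, 3.51% and 1.44%, while Alpi and Muc13 were at 0 there and Muc6 at 0.0157%. Cdh17 had only 2 counts in each of MD + PE replicate 4 and CD + Veh replicate 2. A different proportion was read in MD + Veh replicate 4 (library 46), where Alpi, Akp3, Muc13 and Sis had 8, 10, 6 and 4 counts while Muc6, Tff2, Gkn1 and Gkn3 were at 0. Whether library order bears on these counts was not tested.

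**Figure D4:**
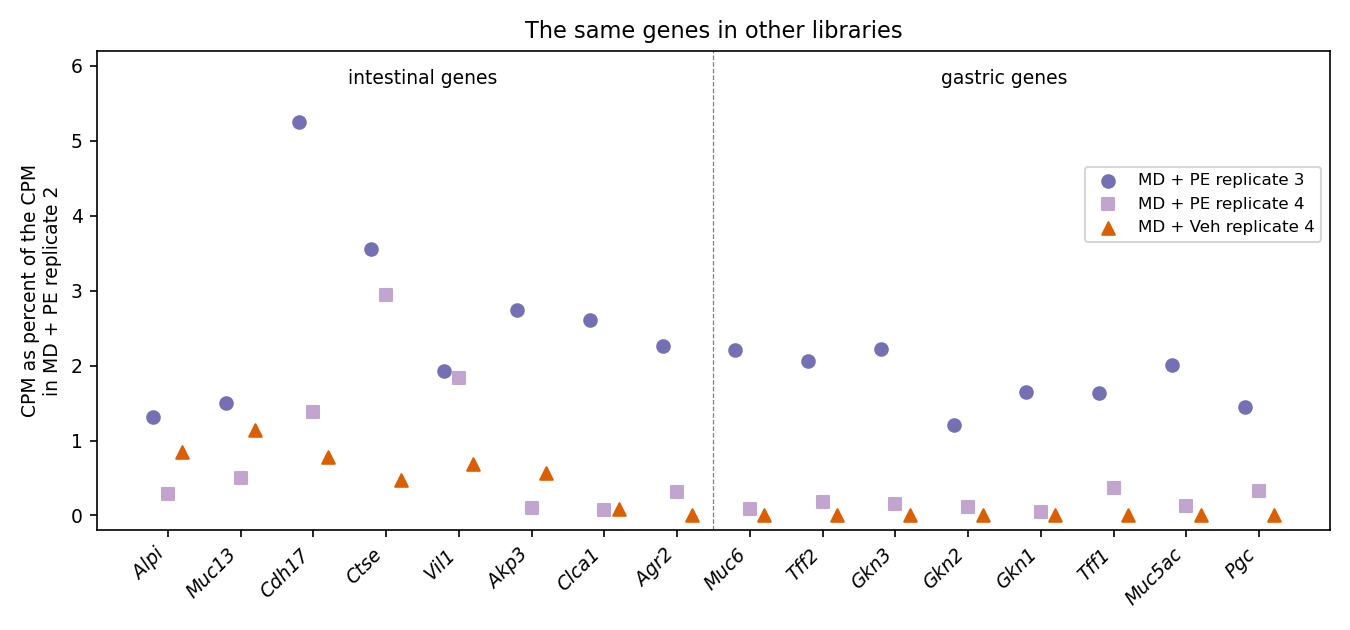
The y axis is the CPM of a gene as a percent of its CPM in MD + PE replicate 2, for 8 genes grouped as intestinal and 8 grouped as gastric in the 3 libraries named. The grouping is not exclusive, since Ctse is also a gastric gene and Muc6 also a duodenal one. The gastric genes lie between 1.21% and 2.22% in MD + PE replicate 3, under 0.4% in MD + PE replicate 4 and at 0 in MD + Veh replicate 4, where Alpi (0.853%) and Muc13 (1.14%) were read.

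Between the groups, Ctse, Lgals4 and Fabp2 were tested, and the other 7 members did not pass the filter on low counts. Ctse passed it only through MD + PE, the group where it was high, so that both of its comparisons with that group are descriptions with or without MD + PE replicate 2. The fits were made with edgeR's quasi-likelihood test over all 13597 genes that passed, with p-values adjusted by the Benjamini-Hochberg method, and calls needed an adjusted p under 0.05 together with a log2 difference of 0.38 or more in either direction. Comparisons that hold MD + PE replicate 2 are descriptions, and each is given beside the fit without that library. MD + PE is compared with MD + Veh and with CD + PE, so these comparisons share the MD + PE libraries.

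Ctse had higher values in MD + PE than in MD + Veh, a difference called only with the library on which the gene was chosen. The 5 MD + PE libraries held 0.974, 48.9, 1.74, 1.44 and 1.44 CPM, and the 5 MD + Veh libraries 0.442, 0.309, 0.477, 0.232 and 0.154 CPM. These groups did not overlap, with MD + PE replicate 2 or without it. The fitted log2 fold change was 5.02 ± 1.22 (SE; edgeR adjusted p = 0.0439), in a comparison in which 1.08% of all genes tested were called. Without MD + PE replicate 2 it was 2.06 ± 0.85 (edgeR adjusted p = 0.284) and was not called, where 0.626% of genes were. Of all genes tested, 1.63% were higher in the remaining 4 MD + PE libraries than in every MD + Veh library. The call is also lost when any 1 of 12 other libraries is left out (CD + Veh replicates 1, 3 and 4, the 5 MD + Veh libraries, CD + PE replicates 3, 4 and 5, and MD + PE replicate 3), with edgeR adjusted p-values from 0.0283 to 0.284 over the 19 libraries left out in turn, and DESeq2 gave no p for this gene.

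The values of Ctse in MD + PE also lay above those in CD + PE, whose 5 libraries held 0, 0.263, 0.353, 0.803 and 0.0987 CPM. The log2 fold change was 5.17 ± 1.28 (SE; edgeR adjusted p = 0.0183), and 4.61% of all genes were called. Without MD + PE replicate 2 it was 2.20 ± 0.90 (edgeR adjusted p = 0.176) and was not called, where 3.92% of genes were. The remaining 4 MD + PE libraries still lay above all 5 CD + PE libraries, as did those of 2.82% of genes tested, Fabp2 among them. In CD + Veh, 1 library decided the level of Ctse, with 1.72 CPM in replicate 2 against 0, 0 and 0.0673 CPM in the others. Its log2 fold change was -0.53 ± 1.62 (edgeR adjusted p = 0.922) in CD + PE against CD + Veh and -0.38 ± 1.52 (edgeR adjusted p = 0.898) in MD + Veh against CD + Veh. Neither was called, and without CD + Veh replicate 2 these values turned to 3.28 and 3.43, also not called.

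With no filter on low counts, edgeR fitted all 10 members, and these values also hold MD + PE replicate 2. In MD + PE against CD + PE, 535 of the 26185 genes fitted were called, and Cdh17 was called beside Ctse and Fabp2. Its log2 fold change was 7.80 ± 1.94 (SE; edgeR adjusted p = 0.0364). Cdh17 was at 0 in all 5 CD + PE libraries, so that this value depends on the prior count and is no bound. DESeq2 did not call it (adjusted p = 0.105). Without the filter, none of the 7 low members was called in MD + PE against MD + Veh, where 167 of 26185 genes were. The nearest was Vil1 with 4.87 ± 1.18 (SE; edgeR adjusted p = 0.0548).

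Fabp2 differed between the diets. Its mean level was 53.8 ± 10.9 CPM (SD, n = 4) in CD + Veh, 67.4 ± 9.41 (n = 5) in CD + PE, 114 ± 7.74 (n = 5) in MD + Veh and 110 ± 8.02 (n = 5) in MD + PE. The 4 CD + Veh libraries held 42.6, 47.4, 58.9 and 66.5 CPM, and the 5 MD + Veh libraries 107, 120, 121, 117 and 104 CPM. All MD + Veh libraries lay above all CD + Veh libraries, as for 7.3% of all genes tested. The log2 fold change was 1.08 ± 0.12 (SE; edgeR adjusted p = 7.56e-06), in a comparison in which 10.4% of all genes were called, and MD + PE replicate 2 is in neither group. Without it the value was again 1.08 (edgeR adjusted p = 1.49e-05), with 10.1% of genes called. Fabp2 was called in all 26 alternatives to this fit.

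In MD + PE against CD + PE the log2 fold change of Fabp2 was 0.72 ± 0.11 (SE; edgeR adjusted p = 0.000439). Without MD + PE replicate 2 it was 0.69 ± 0.12 (edgeR adjusted p = 0.00167), with libraries from 97.7 to 117 CPM against 55.3 to 76.9 CPM in CD + PE. PE within a diet made no called difference in Fabp2. The log2 fold change was 0.32 ± 0.12 (edgeR adjusted p = 0.142) in CD + PE against CD + Veh, where 2.92% of all genes were called and 2.7% without MD + PE replicate 2, and -0.04 ± 0.11 (edgeR adjusted p = 0.910) in MD + PE against MD + Veh. The diet difference in Fabp2 is the one called difference of a member that does not rest on MD + PE replicate 2.

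Lgals4 was not called in any comparison. Its level was 11.8 ± 3.83 CPM (SD, n = 4) in CD + Veh, 14.6 ± 8.08 (n = 5) in CD + PE, 9.97 ± 2.16 (n = 5) in MD + Veh and 20.1 ± 17.8 (n = 5) in MD + PE, and 12.2 ± 1.77 in MD + PE without replicate 2 (n = 4). The groups overlapped in every pair. Its log2 fold change was 1.02 ± 0.43 in MD + PE against MD + Veh (edgeR adjusted p = 0.245) and 0.29 ± 0.32 without MD + PE replicate 2 (edgeR adjusted p = 0.747). In MD + PE against CD + PE it was 0.46 ± 0.42 (edgeR adjusted p = 0.568) and turned to -0.26 ± 0.32 without that library.

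**Figure D5:**
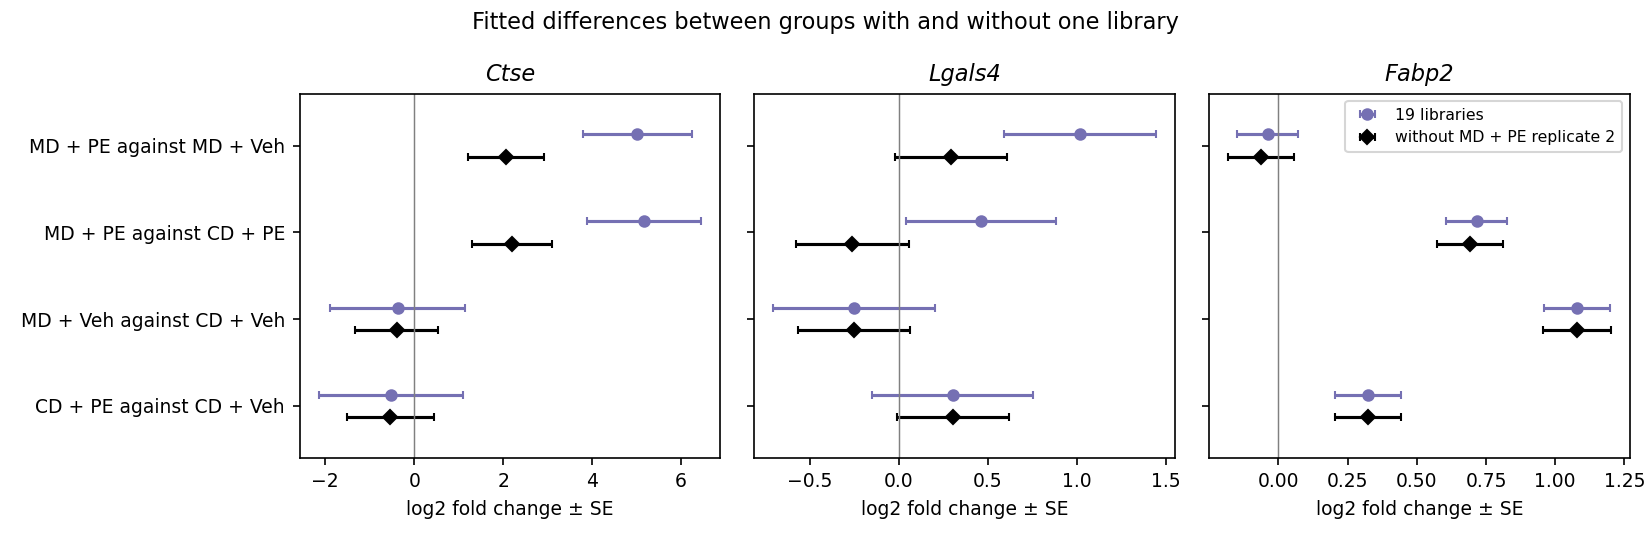
Points are log2 fold changes of Ctse, Lgals4 and Fabp2 in 4 comparisons between groups, with bars of 1 SE, from fits over all 19 libraries (circles) and without MD + PE replicate 2 (diamonds). For Ctse the value in MD + PE against MD + Veh falls from 5.02 to 2.06 and for Lgals4 from 1.02 to 0.29 when the library is left out, while Fabp2 stays at 1.08 in MD + Veh against CD + Veh.

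For the interaction, which asks whether the effect of PE differed between the diets, no member was called, with 0.00735% of all genes called (1 gene). The edgeR log2 values were 5.55 ± 2.04 for Ctse (adjusted p = 0.421), 0.72 ± 0.62 for Lgals4 (adjusted p = 0.773) and -0.36 ± 0.16 for Fabp2 (adjusted p = 0.535). At an unadjusted p under 0.05, edgeR passed 2 members and 1193 of all genes. DESeq2 called 81 genes and no member, but gave an adjusted p only for Lgals4, Cdh17 and Fabp2, so the others could not be called. Without MD + PE replicate 2, edgeR called 0 genes, and the value of Ctse was 2.59 ± 1.31 (adjusted p = 0.621).

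Over all genes, 147 were called in MD + PE against MD + Veh with MD + PE replicate 2 and 85 without it, 78 of them in both fits. Other libraries moved this count as much, since it was 56 when MD + PE replicate 3 was left out, 84 for MD + PE replicate 4, and 84, 89 and 243 for replicates 1, 2 and 4 of MD + Veh. Of the 168 genes of the single-library limit, 21 passed the filter, and Fcgbp, Ctse and Elapor1 were called. In MD + PE against CD + PE the counts with and without MD + PE replicate 2 were 627 and 533, with 469 in both, and 987 without CD + PE replicate 2.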

How the data were processed

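Per the labels and the methods of the study, the authors isolated poly(A) RNA from frozen liver, trimmed reads with fastp 0.23.4, used Salmon 1.10.3 with GENCODE transcripts of build GRCm39, and added up the transcripts of each gene. The deposited table holds the authors' estimated counts as whole numbers, unfiltered and not normalized, for 19 libraries. The methods call the libraries stranded and let Salmon detect the library type. Groups came from the sample titles, and each column from the description of its sample.

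Groups were compared with edgeR 4.0.16 in R 4.3.3 (TMM, filterByExpr by group, quasi-likelihood F test over all 19 libraries), with DESeq2 1.42.0 as an alternative. The fits were tested on simulated data. Of 36 pairs of libraries of a group, none was a copy, with a mean squared difference of at least 11.2 in units of counting error. Depth was 10398820 to 15456729 counts, and 1 library came from each mouse. Of the members, 7 did not pass the filter and were fitted only without it or with DESeq2. Positions and exon lengths came from GENCODE vM39, promoters from RefSeq.

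The members and marker lists were chosen with earlier results of these data known. Named genes were the 10 members, the 15 largest ratios, the 10 closest patterns, near relatives of the members and genes of the marker lists. For each list the plan was to name up to 6 genes with the most counts in MD + PE replicate 2. This plan was not followed throughout. Krt7 and Actg2 lay outside the first 6 of their lists and were named, while Cftr, Epcam and Slc10a2 lay within them and were not. List genes at 0 or ranked lower in that library, and genes that set the level of another library, were named after their values were seen. The fetal liver list (Afp, Gpc3, H19, Igf2) summed to 2.67 CPM in MD + PE replicate 2, within the 1.07 to 83.6 CPM of the other libraries. Alternatives were RLE factors, DESeq2, other filters, fits of the compared groups alone, a replicate block, no minimum fold change and leaving out each library, and leaving out MD + PE replicates 2 and 3 together, which was chosen after the data were seen. Some genes of the marker lists are not reported here by name.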

Additional observations from a re-analysis of the deposited data

Results flagged for a closer look

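Within each group, the gap of the highest or lowest library to its nearest neighbour was divided by the range of the group (Dixon's ratio) for 68 sets of values, each a member or a marker list in 1 group, and 27 gaps were larger than the 95% limit. Chance flags about 1 in 20 groups. MD + PE replicate 2 gave 16 of the 27, and since most members were chosen for their height there, these gaps are a description. Of the members it stood apart for Alpi (0.9868), Cdx2 (1), Vil1 (0.9842), Lgals4 (0.9095), Ctse (0.9841), Cdh17 (0.9476), Reg3g (0.9422) and Muc13 (0.9851). Fabp2 was not among them, and Cdx1 was read in MD + PE replicate 2 alone at 5 counts. Of the marker lists it stood apart for the stomach (0.9789), goblet cells (0.9755), enteroendocrine cells (0.96), and plasma cells and lymphocytes (0.9527). It also stood apart for Paneth cells with gut antimicrobial proteins (0.9373), bile duct (0.9365), smooth muscle (0.8378) and enterocytes (0.8298).

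The other 11 gaps lay in other libraries. CD + Veh replicate 2 stood apart for Ctse (0.9608), smooth muscle (0.9733) and skeletal muscle (0.9777). MD + Veh replicate 1 stood apart for skeletal muscle (0.9374), smooth muscle (0.9015), fetal liver genes (0.8987, with H19 at 1270 counts) and crypt stem cell genes (0.7694). CD + PE replicate 1 stood apart for fetal liver genes (0.9835), skeletal muscle (0.9822) and smooth muscle (0.8489), and CD + PE replicate 2 for plasma cells and lymphocytes (0.7133). The cause of these gaps was not tested.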

How the results depend on the processing

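In MD + PE against MD + Veh, where Ctse was the 1 member called, DESeq2, the fit of the groups compared alone, the replicate block and leaving out MD + PE replicates 2 and 3 together each gave 0, and leaving out single libraries gave 0 to 1. DESeq2 gave no p for Ctse, so its 0 is no result for that gene. In MD + PE against CD + PE, 2 members were called. DESeq2 gave 1, with no p for Ctse, where 793 of 26185 genes were called. The groups compared alone gave 1, with 450 of 12527 genes, and leaving out MD + PE replicates 2 and 3 gave 1, with 484 of 13876. Leaving out single libraries gave 1 to 2. No filter on low counts gave 3, with Cdh17 added and 535 of 26185 genes called. Over all genes, DESeq2 called 299 of 26185 and the groups compared alone 73 of 12868 in MD + PE against MD + Veh, against 147 of 13597. In this comparison the replicate block called 178 of 13597, and leaving out MD + PE replicates 2 and 3 together 22 of 13876. Of the 168 genes high in MD + PE replicate 2 alone, 103 met a ratio of 10 and 110 a minimum of 50 counts.

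Log2 fold changes that turned sign were never called. Over the libraries left out in turn, Fabp2 ran from -0.0679 to 0.002455 in MD + PE against MD + Veh (0.002455 without MD + PE replicate 3). Lgals4 ran from -0.02283 (without CD + PE replicate 3) to 0.5662 in CD + PE against CD + Veh, from -0.3474 to 0.01295 (without CD + Veh replicate 4) in MD + Veh against CD + Veh, from -0.2594 (without MD + PE replicate 2) to 0.7915 in MD + PE against CD + PE, and from -0.009325 (without MD + PE replicate 2) to 1.042 in the interaction. It was -0.2937 in MD + PE against CD + PE without MD + PE replicates 2 and 3. Ctse ran from -1.212 to 3.275 in CD + PE against CD + Veh and from -0.7994 to 3.426 in MD + Veh against CD + Veh, both highest without CD + Veh replicate 2.

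With the replicate number as a block, Ctse stood at 3.55 in MD + PE against MD + Veh (edgeR adjusted p = 0.07), at 0.5058 in CD + PE against CD + Veh and at 0.8721 in MD + Veh against CD + Veh, and 41 genes were called in the interaction against 1. The numbers do not pair the libraries, since over 27 same-numbered pairs the median correlation of residuals was 0.0293 and 6 exceeded 0.1. The causes were not tested. At these depths, members under 3 counts cannot be told from 0.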
